A study of Mus musculus with 4 samples.

Results

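Radial glia zone spots are the spots of these fetal mouse heads that scored highest for genes known from the stem cells that line the brain ventricles. They were chosen by a score over 5 genes, Fabp7, Sox2, Ttyh1, Aldoc and Mlc1. The score of a spot was the mean over these genes of log2(1 + 10000 × UMIs of the gene / UMIs of the spot), where a unique molecular identifier (UMI) counts 1 captured molecule. The 200 highest scores among the 5901 tissue spots with at least 2000 UMIs were taken, with all libraries pooled. The members therefore differ from other spots in these 5 genes by construction. Every comparison of the level of members with that of other spots below is a description with no test. Only their changes between the stages were compared by a test.

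Gene expression was recorded with Visium, an array of barcoded spots, from coronal sections of formalin-fixed and paraffin-embedded whole heads of wild-type C57BL/6J embryos, which carried no further allele or treatment, at embryonic day (E) 14.5 and at E15.5. Each stage had 2 capture areas, each a single library, and 1 of them held replicate 1 as a single section while the other held replicates 2, 3 and 4 as 3 sections. The labels do not tell these 3 sections apart, and they are named A, B and C here by rising median UMIs per spot. Each spot takes up RNA from several neighbouring cells, so a level is that of a zone and not of a cell type, and fewer cells of a type cannot be told apart from less RNA per cell.

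Radial glia are the neural stem cells of the embryonic brain. Their cell bodies lie in the ventricular zone beside the ventricle, they divide there, and they produce neurons directly or through intermediate progenitors that divide again in the adjoining subventricular zone before the young neurons move outward. Notch signalling keeps neighbouring cells in the progenitor state through the Hes genes, while proneural factors such as Neurog2 start neuronal differentiation. In the telencephalon, dorsal radial glia give rise mainly to glutamatergic neurons and ventral radial glia to GABAergic neurons, and the same lineage later forms astrocytes and oligodendrocytes.

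The members came from every capture area. At E14.5, 46 of 859 spots of replicate 1 were members (5.36%, exact 95% binomial interval 3.95 to 7.08) and 80 of 2104 spots of replicates 2, 3 and 4 (3.80%, 3.03 to 4.71). At E15.5, 39 of 988 spots of replicate 1 were members (3.95%, 2.82 to 5.36) and 35 of 1950 spots of replicates 2, 3 and 4 (1.79%, 1.25 to 2.49). These intervals cover counting error only and treat spots as independent, although members lay in patches. The shares of the stages overlapped, since E15.5 replicate 1 lay above the E14.5 area of replicates 2, 3 and 4. Within the shared areas, members numbered 10 in section A, 55 in section B and 15 in section C at E14.5, and 29 in section A and 6 in section B at E15.5. The E15.5 section C held 0 of 526 spots, for which the same interval reaches 0.699%. The amount of brain differed between sections, so that stage and plane of section cannot be told apart in these shares.

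Depth differed between the areas. In the order E14.5 replicate 1, E14.5 replicates 2, 3 and 4, E15.5 replicate 1 and E15.5 replicates 2, 3 and 4, which is kept for every set of 4 values below, the median member had 53088, 64770, 91494 and 24104 UMIs, and the median of the other spots was 10150, 49870, 63483 and 45716. Members were thus deeper than the other spots in 3 areas and shallower in the last, and the part of depth in the values below was not tested except by thinning, as given. The shallowest were the 10 members of the E14.5 section A, with a median of 3628.5 UMIs and 51007 UMIs in all, so that values of that section rest on few molecules. When each spot was thinned to 2000 UMIs before the choice, 121 of the 200 members (60.5%) were chosen again. The lowest member scored 1.4247 and the highest spot left out 1.4246, so that the boundary separates spots that are alike. The highest score was 2.97. Spots were identified within their own library, and 2161 array positions lay under tissue in more than 1 area because the array repeats its barcodes.

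**Figure D1:**
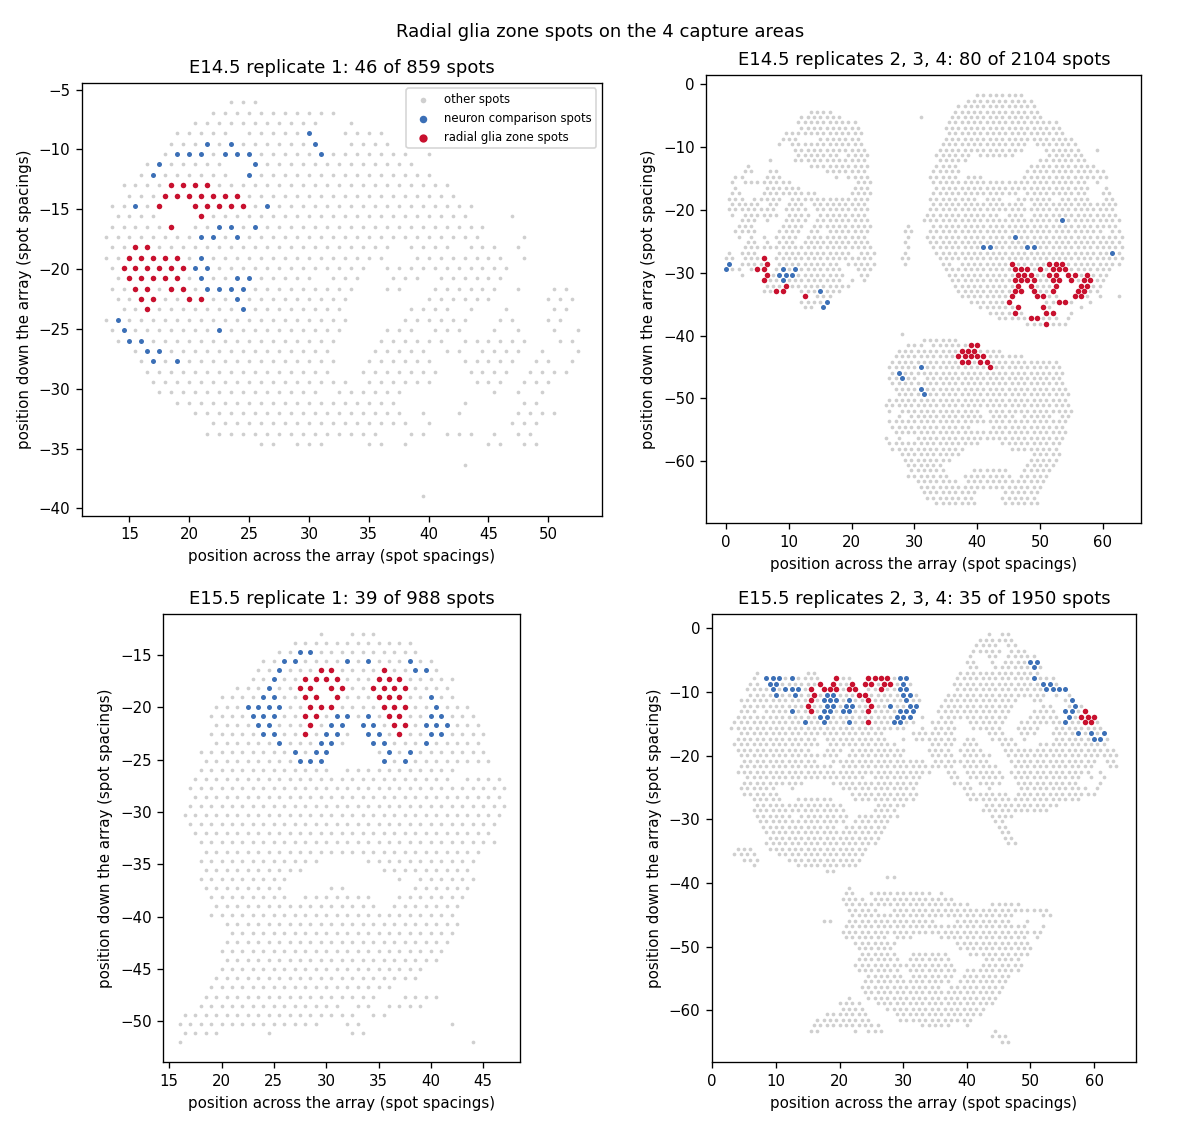
Position of every tissue spot with at least 2000 UMIs in the 4 capture areas, in spot spacings across and down the array, with radial glia zone spots in red, the 200 spots of highest neuronal score in blue and other spots in grey. Most members lay in patches and 5 of the 200 touched no other member, and the lowest section of the E15.5 area of replicates 2, 3 and 4 held none.

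The members formed patches, although the score used no positions. Of the distinct spots that touched a member, 46.9%, 44.5%, 47.0% and 38.2% were members themselves in the 4 areas, where members made up 1.79% to 5.36% of all spots. Counted as links from each member to each spot that touched it, so that a spot with several member neighbours counts several times, 66.7%, 55.5%, 66.1% and 45.1% of the links led to another member. Over the 4 areas the share of links was 58.9%, and it was 33.4% when spots were thinned to 2000 UMIs before the choice. Only 1, 3, 0 and 1 members touched no other member. In E15.5 replicate 1 the 39 members made 2 patches. The largest patch held 27 spots in E14.5 replicate 1 and 9 in E15.5 replicates 2, 3 and 4. Spots at the border of the tissue were 15.2%, 45.0%, 20.5% and 54.3% of the members and 17.1%, 28.2%, 22.9% and 37.9% of the other spots.

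The 5 genes of the score are given as a description. Levels are in CPM, the UMIs of a gene divided by the total UMIs of those spots and scaled to 1000000. Fabp7, a fatty acid-binding protein of radial glia, stood at 389, 215, 305 and 567 CPM in the members and at 49.5, 32.0, 17.0 and 20.7 CPM in the other spots. Aldoc, a glycolytic aldolase of the astroglial lineage, stood at 781, 535, 757 and 410.3 CPM against 70.9, 50.6, 49.2 and 31.9 CPM. Aldoc was the highest of the 5 in 3 areas and Fabp7 in the E15.5 area of replicates 2, 3 and 4. Mlc1, a membrane protein of astroglia, was the scarcest outside the members, with 222, 159, 239 and 238 CPM in the members against 13.6, 12.9, 9.18 and 5.16 CPM. Ttyh1, a membrane protein of neural progenitors, had 337, 321, 394 and 359 CPM against 47.5, 43.1, 39.4 and 18.8 CPM. Sox2, a transcription factor of neural and other progenitors, differed least, with 73.3, 86.0, 74.6 and 149 CPM against 30.4, 29.3, 21.4 and 20.5 CPM.

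Single members varied widely in these genes. Per 10000 UMIs, Fabp7 had a median of 3.44 in the members of E14.5 replicate 1 (lowest 0.931, highest 15.8), and 2.19 (0.443 to 8.89), 2.66 (0.913 to 6.75) and 5.14 (1.31 to 16.8) in the following areas. Every member had at least 1 UMI of Fabp7, whereas 12 members had none of Sox2.

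Each gene was also left out of the score in turn, so that the other 4 made the choice. The 5 genes were picked together with earlier results of these data known, so these folds are a description and no check of the label. With Mlc1 left out, 190 of the 200 spots were chosen again and Mlc1 was 16.2, 11.7, 26.03 and 42.6 times as high in CPM in the chosen spots as in the others. With Fabp7 left out the fold was 7.48, 6.198, 18.0 and 28.1, with Ttyh1 6.63, 6.90, 9.50 and 18.4, and with Aldoc 8.79, 7.23, 14.3 and 11.02. Sox2 again had the smallest fold, at 2.30, 2.69, 3.33 and 7.11. Each of the 5 genes was concentrated where the other 4 were, in every area. For each of them both E15.5 folds lay above both E14.5 folds, which was not tested. A fold also depends on the other spots. In the main choice the 5 genes summed to 1802, 1317, 1770 and 1722 CPM in the members. In the other spots they summed to 212, 168, 136 and 97.2 CPM. Only Ttyh1 and Mlc1, 2 of the 5, were higher in the members of both E15.5 areas, where 10.6% of all genes tested were.

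A list of 30 radial glia genes that the score did not use was then read. A gene was counted as higher where its CPM + 1 was at least 2-fold that of the other spots in all 4 areas, among genes with at least 50 UMIs over the members. The minimum was set on the members, so that a low gene entered only if it was seen there. Of the 29 radial glia genes with enough UMIs, 15 (51.7%) were higher and 0 lower, where 1.84% of the 10848 genes outside the score were higher and 7.18% lower. The median log2 ratio was 1.39 for the list and -0.04 for all these genes. With spots thinned before the choice, 9 genes of the list met the count.

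The genes with the largest ratios were transcription factors of neural stem cells. Sox3 stood at 98.0, 74.1, 115 and 69.4 CPM in the members and at 8.27, 9.55, 8.21 and 3.34 CPM elsewhere, a log2 ratio of 3.42, 2.83, 3.65 and 4.02. Nr2e1, a nuclear receptor of neural stem cells, had 88.6, 34.8, 69.0 and 58.5 CPM against 12.6, 7.64, 7.97 and 3.64 CPM. Sox1, which with Sox2 and Sox3 forms the SoxB1 group of neural progenitor factors, had 152, 154, 181 and 170.5 CPM against 34.8, 39.6, 21.0 and 12.9 CPM. In all 4 areas the ratio of Sox3 was above that of Sox1. Ptprz1, a receptor phosphatase of radial glia, had 833, 552, 926 and 956 CPM against 177, 131, 117 and 73.4 CPM. Id4, an inhibitor of proneural factors, was among the most abundant, with 1119.8, 1338, 997 and 516 CPM against 334, 330.1, 182 and 79.8 CPM.

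Several genes often used to mark radial glia were not particular to the members in a whole head. Vim, the intermediate filament vimentin, stood at 851, 853, 1016 and 719 CPM in the members and 815, 1134, 1263 and 1321 CPM in the other spots, and was lower in the members in 3 areas. Nes, the filament nestin, was higher in the members in all 4 areas but by less than 2-fold, with log2 ratios of 0.66, 0.66, 0.40 and 0.53. Hes1 was lower in the members in all 4 areas, with log2 ratios of -0.35, -0.32, -1.03 and -0.54. Pla2g7, with 67 UMIs over the members, had the lowest median of the list. Against neuronal spots alone, Vim, Nes and Hes1 were higher in the members in every area. The comparison was with the 200 spots of highest score over Tubb3, Stmn2, Dcx, Mapt and Snap25, of which 44, 23, 61 and 72 lay in the 4 areas. Of these neuronal spots 6 touched a member, and 29, 7, 49 and 40 lay within 3 spot spacings of a member. Against these spots, 25 of the 29 radial glia genes (86.2%) were at least 2-fold higher in the members in every area, where 5.11% of all genes were. Spots chosen for neuronal RNA hold less progenitor RNA in part by that choice, so this count is a description. Vim had 317, 312, 306 and 242 CPM and Nes 89.9, 104, 89.5 and 89.1 CPM in those neuronal spots, below the members in every area.

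**Figure D2:**
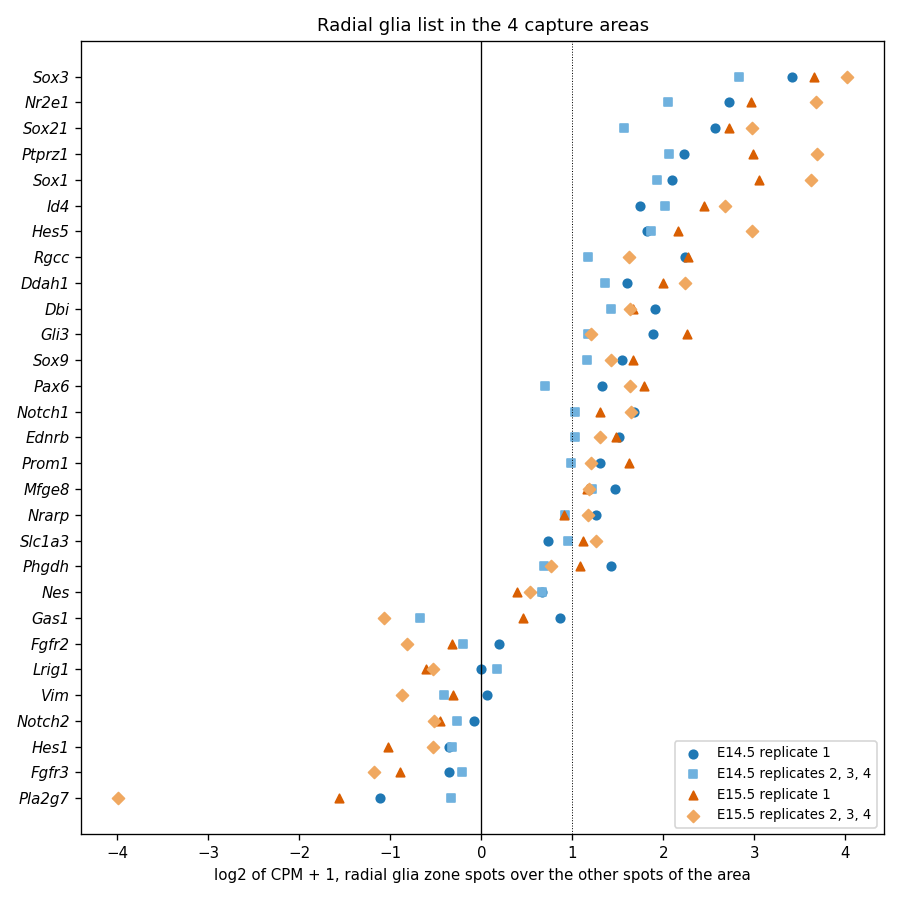
Log2 ratio of CPM + 1 in radial glia zone spots over the other spots of the same capture area (horizontal axis) for the 29 genes of the radial glia list with at least 50 UMIs, ordered by their median, with a point for each area. The dotted line marks 2-fold, and 15 genes lay past it in all 4 areas. Sox3 had the highest median, and Vim, Notch2, Hes1, Fgfr3 and Pla2g7 the 5 lowest, all below 0.

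Outside all lists, the gene with the largest ratio in its weakest area was Rfx4, a transcription factor of neural progenitors, at 43.0, 40.1, 42.0 and 44.6 CPM in the members against 2.89, 3.87, 2.39 and 1.06 CPM. Mt3, a metallothionein of the brain, was the most abundant of the 15 genes named by this rule, at 1158, 862, 1350.4 and 1755 CPM against 123, 136, 67.2 and 66.1 CPM. Kcnj10, a potassium channel of glia, had 281 UMIs over the members and log2 ratios of 2.88, 2.64, 3.34 and 2.85. The zinc finger factors Sall3 and Sall1 had log2 ratios of 3.02, 2.47, 3.87 and 4.81 and of 2.83, 2.24, 3.37 and 3.66. Acsbg1, an acyl-CoA synthetase, had 3.13, 2.37, 3.91 and 4.22, and Cbs, an enzyme that makes cystathionine from homocysteine, had 2.49, 2.22, 2.75 and 2.71. Fgfbp3, which binds fibroblast growth factors, stood at 368, 232, 417 and 267 CPM against 58.5, 47.3, 41.6 and 25.8 CPM. Among the others were 2810459M11Rik, Pdzph1, Paqr8, Adgrv1, Siah3 and Ankfn1, with lowest ratios between 2.11 and 2.82. These 15 genes were picked as the largest of 10848 ratios, and their sizes are a description.

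Genes of the Notch pathway lay on both sides of the other spots. Of the 21 genes with enough UMIs, 4 (19.0%) were at least 2-fold higher in all areas, namely the ligands Dll1 and Dll3, the receptor Notch1 and the target Hes5. In this list 2 (9.52%) were lower, and among all genes outside the score 1.84% were higher and 7.18% lower. Dll1 had 125, 115, 139 and 117 CPM in the members against 38.6, 36.5, 32.7 and 19.4 CPM. Dll3, a divergent ligand that acts within the cell, had 113, 135, 119 and 145 CPM against 36.8, 39.7, 25.0 and 11.4 CPM. The ligands Jag1 and Jag2 went the other way, with log2 ratios of -0.77, -0.69, -1.20 and -1.19 for Jag1 and -1.43, -1.28, -1.82 and -0.99 for Jag2. Of the receptors, Notch1 had 376, 342, 417 and 476 CPM against 117, 168, 168 and 151 CPM, whereas Notch2 was lower in the members in every area, with log2 ratios of -0.08, -0.27, -0.46 and -0.52. Dlk1, a non-canonical ligand abundant in mesenchyme, was lowest, at 173, 171, 43.2 and 107 CPM against 1409, 2248, 2246 and 2429 CPM.

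Among the targets, Hes5 was higher and Hes1 lower in the members than in the other spots. Hes5 had 163, 167, 193 and 186 CPM in the members and 45.3, 45.3, 42.4 and 22.9 CPM elsewhere. Hes1 had 88.2, 112, 76.4 and 86.2 CPM in the members and 113, 140.2, 156 and 125 CPM elsewhere. Against the neuronal spots both were higher in the members, since Hes1 had 50.6, 40.0, 21.4 and 25.1 CPM there and Hes5 30.5, 36.02, 27.9 and 29.2 CPM. Nrarp, a feedback inhibitor of the pathway, had log2 ratios of 1.26, 0.92, 0.91 and 1.17 over the other spots. The promoter of Hes5 is shown because it is the target gene that marks these spots. It lies on the plus strand of GRCm38.p6 at chr4:154960673-154960972, from 250 bases before to 50 bases after the start of the gene in RefSeq, and capitals mark matches to TGGGAA, the core that the Notch effector RBPJ binds, on either strand.
Hes5: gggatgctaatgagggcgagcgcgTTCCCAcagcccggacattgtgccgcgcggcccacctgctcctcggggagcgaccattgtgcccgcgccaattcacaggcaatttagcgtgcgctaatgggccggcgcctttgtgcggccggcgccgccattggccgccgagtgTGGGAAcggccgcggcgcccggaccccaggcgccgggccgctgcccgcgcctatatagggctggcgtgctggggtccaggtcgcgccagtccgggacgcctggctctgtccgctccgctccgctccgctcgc
The Hes5 window held 2 matches, which begin at bases 25 and 169 counted from its 5′ end. Of all 32851 promoter windows of this length, 25.6% held at least 1 match. Of the Notch list, 18 genes had a window and 4 of these held the motif, namely Lfng, Rbpj, Hes5 and Hey2. Such a match is a description of letters and not a binding site.

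Cell division genes were above the other spots in part and far above the neuronal spots. Of 17 genes with enough UMIs, 0 were 2-fold higher than the other spots in all 4 areas and 10 were above them by any amount in all 4, as were 32.7% of all genes outside the score. Mki67, a protein of dividing cells, stood at 666, 649, 851 and 848 CPM in the members against 248, 341, 319 and 327 CPM. Ccna2, cyclin A2, had 847, 547, 932 and 742 CPM against 285, 287, 296 and 292 CPM. In both genes the area of E14.5 replicates 2, 3 and 4 was the exception to a 2-fold difference. Against the neuronal spots, where Mki67 had 88.3, 112, 91.2 and 131 CPM, 13 of the 17 genes (76.5%) were at least 2-fold higher in every area. Of all genes 5.11% were, and this count too is a description, since those spots were chosen for neuronal RNA. Ccnd1, cyclin D1, was the lowest of the list, with log2 ratios of -1.29, -0.79, -1.37 and -0.85 over the other spots. Top2a had only 44 UMIs and Pcna 0 UMIs over all members, and both were near 0 in the other spots too.

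Levels were also read by distance from the nearest member of the same section, counted in spot spacings, for which the spots next to a member are at 1. The number of spots at distance 1 was 51, 96, 44 and 55. Fabp7 was at 389, 215, 305 and 567 CPM in the members, 126, 129, 83.2 and 178 at distance 1 and 13.1, 17.4, 8.54 and 16.3 beyond 5 spacings. Hes5, which the score did not use, had 163, 167, 193 and 186 CPM in the members, 58.7, 119.999, 61.3 and 84.6 at distance 1 and 29.0, 98.6, 35.0 and 34.5 at distance 2. Mki67 reached its lowest values at distance 3 in 3 areas, at 123, 119 and 178 CPM, and was at 293, 334, 351 and 314 CPM beyond 5 spacings. Hes1 was also lower at distance 1 than in the members in every area, at 88.2, 112, 76.4 and 86.2 CPM in the members and 32.4, 79.2, 30.9 and 39.8 at distance 1, and was highest beyond 5 spacings, at 178, 164, 189 and 125 CPM. The decline of Hes5 and Mki67 was slowest in E14.5 replicates 2, 3 and 4, where Mki67 was still at 534 CPM at distance 1 and 449 CPM at distance 2.

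**Figure D3:**
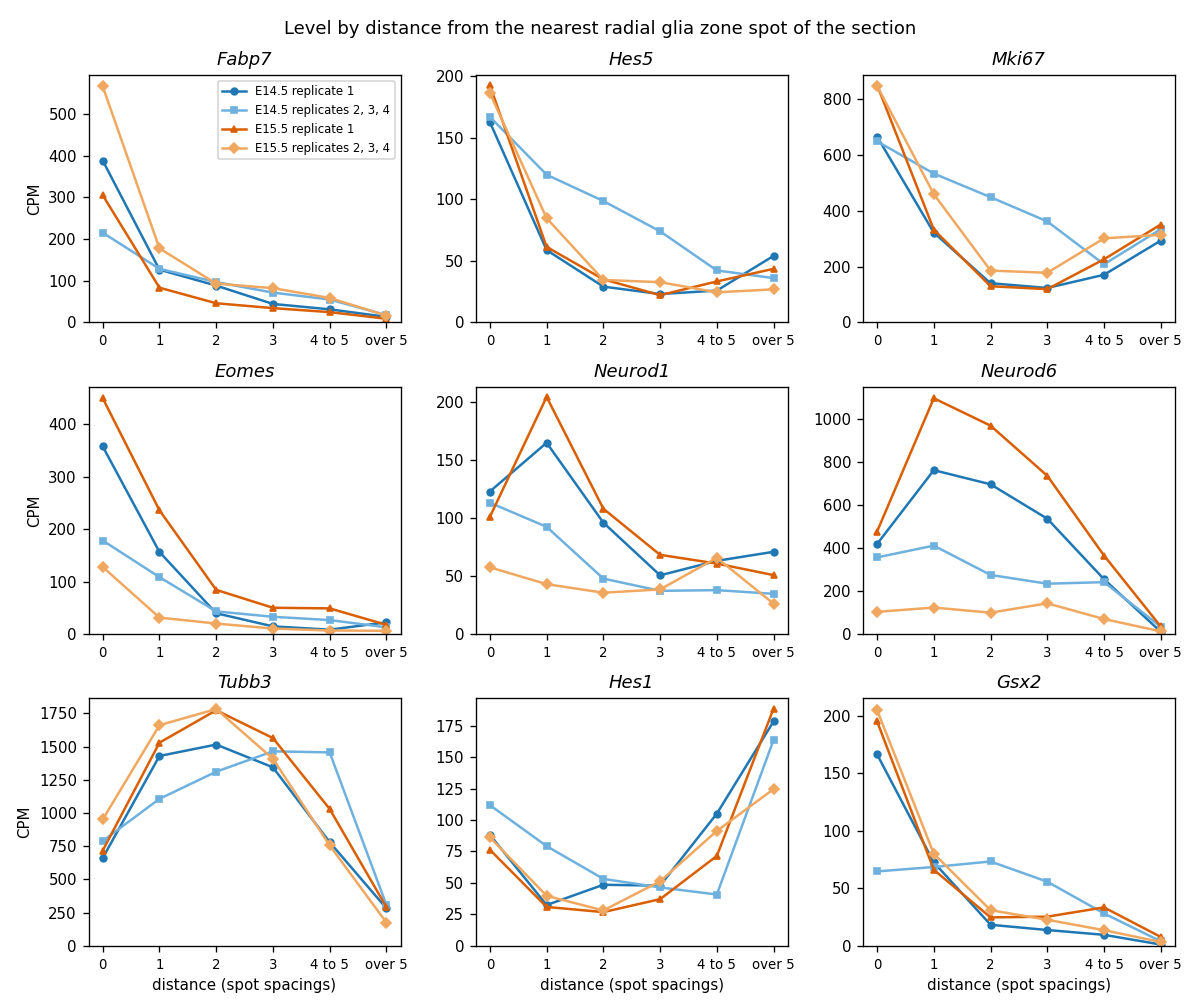
Level in CPM (vertical axis, from 0) against distance from the nearest radial glia zone spot of the section in spot spacings (horizontal axis), with a line for each capture area and 0 for the members. Fabp7, Hes5 and Eomes were highest in the members in all 4 areas, Tubb3 peaked at distance 2 or 3, and Hes1 was lower at distance 1 than in the members and highest beyond 5 spacings.

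Genes of the successive steps from radial glia to neurons had different profiles over distance. Of the 13 proneural and intermediate progenitor genes with enough UMIs, 9 (69.2%) were at least 2-fold higher in the members than in the other spots in all areas, where 1.84% of all genes were. Eomes, the factor of intermediate progenitors of the cortex, had 357, 178, 449 and 128 CPM in the members against 47.7, 21.4, 37.2 and 5.23 CPM, and Insm1, a factor of newly generated neural cells, had 792, 491, 1131 and 518 CPM against 201, 148, 188 and 47.1 CPM. At distance 1 the median log2 ratio of the list to the members was -0.68, -0.18, -0.80 and -0.71, against -1.31, -0.42, -1.49 and -1.12 for the radial glia list and 0.995, 0.51, 1.21 and 0.84 for the neuron list. In every area the proneural list declined less over the first spacing than the radial glia list, while neuron genes were higher at distance 1 than in the members. Members were chosen by the score and their neighbours at distance 1 fell below it. Genes that follow the score therefore decline over this spacing by the choice, and the order of the lists is a description. Eomes itself was highest in the members in every area, with 156, 109, 236 and 31.4 CPM at distance 1.

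Neurod1, a later factor of the same series, was at 123, 113, 101 and 57.5 CPM in the members and 165, 92.3, 204 and 43.0 at distance 1, so it peaked next to the members in both replicate 1 areas and did not in the others. Neurod6, a factor of cortical glutamatergic neurons, peaked at distance 1 in 3 areas, at 761, 411 and 1094 CPM, and at distance 3 in the remaining area, at 143 CPM. Tubb3, a neuronal tubulin, was at 662, 789, 717 and 951 CPM in the members, 1515, 1311, 1773 and 1783 at distance 2 and 283, 308, 292 and 176 beyond 5 spacings. The members therefore held neuronal RNA as well. Neuron genes were on both sides of the other spots, with 0 of 19 genes 2-fold higher and 1 (5.26%) lower in all areas, where 1.84% and 7.18% of all genes were. Against the neuronal spots, 10 of 19 were at least 2-fold lower in every area, where 6.48% of all genes were. The neuronal spots were chosen by neuronal genes, so that this count is a description and supports nothing. Stmn2, which is in the score of the neuronal spots and is higher there by that choice, had 678, 1128, 667 and 1164 CPM in the members. At distance 0, the members of the E14.5 section A had 3352 CPM of Stmn2, and those of the other 6 sections between 667 and 1286. Their neuron list summed to 11528 CPM, against 3668 to 6215 in the other 6. Their olfactory list, which shares Gap43, summed to 2000 CPM against 288 to 594, and their radial glia list to 4960 against 7123 to 9214. These members thus held more neuronal and olfactory and less radial glia RNA than those elsewhere, on 51007 UMIs, and their makeup was not tested.

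Genes of the astrocyte and oligodendrocyte lineages were present in part. Of 16 gliogenesis genes with enough UMIs, 4 (25.0%) were at least 2-fold higher in all areas and 3 (18.75%) lower, where 1.84% and 7.18% of all genes were. Aldh1l1, a folate enzyme used as an astrocyte marker, had 101, 47.6, 128 and 134 CPM in the members against 6.86, 8.16, 6.66 and 5.02 CPM. Hopx, a homeodomain protein of some radial glia, had 52.4, 86.0, 79.9 and 52.5 CPM against 9.13, 14.8, 12.5 and 11.3 CPM. Slc1a2, a glutamate transporter of astrocytes, had 192, 139, 222 and 301 CPM against 77.5, 62.0, 51.5 and 27.0 CPM, but 190.3, 240.2, 189 and 209.6 CPM in the neuronal spots, within the range of the members. Olig2, a factor of motor neuron and oligodendrocyte progenitors, had 22.6, 58.7, 23.4 and 39.6 CPM against 6.86, 12.4, 6.53 and 3.95 CPM. The mature astrocyte genes Gfap and Aqp4 had 28 and 22 UMIs over all members and S100b had 6. Pdgfra and Cspg4, which mark oligodendrocyte precursors and also mesenchyme and pericytes, were lower in the members, with log2 ratios of -2.85, -2.26, -4.31 and -3.60 for Pdgfra. Bcan, a proteoglycan of the brain, was uneven among sections, with 35.4, 39.2, 258, 579.6, 6.51, 118 and 0 CPM in the E14.5 sections of replicate 1, A, B and C and the E15.5 sections of replicate 1, A and B.

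Regional factors of the forebrain differed between the sections. Of 11 dorsal telencephalon genes, 5 (45.5%) were at least 2-fold higher in the members than in the other spots in all areas, among them Emx1, Lhx2, Neurog2 and Eomes. Of 15 ventral genes 3 were higher, among them Gsx2 and Dlx2, and 1 lower, Lhx8. Neurog2, the dorsal proneural factor, had 512, 196, 229, 103, 684, 159 and 4.36 CPM in the 7 sections in the same order, and Emx1, a dorsal homeobox gene, had 166, 157, 142, 92.5, 173, 97.4 and 4.36 CPM. Gsx2, a factor of the lateral ganglionic eminence, had 167, 58.8, 74.3, 44.8, 195, 139.8 and 428 CPM, and Dlx2, a homeobox gene of the ganglionic eminences, had 80.1, 98.0, 45.5, 49.97, 79.6, 132 and 262 CPM. The E15.5 section B, with 6 members, had the highest Gsx2 and Dlx2 of the 7 sections and 4.36 CPM of Neurog2, from 1 UMI, with 0 UMIs of Eomes. Nkx2-1, a factor of the medial ganglionic eminence and hypothalamus, was at 4.69, 0, 90.4, 547, 1.18, 38.5 and 0 CPM and thus highest in the E14.5 section C.

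**Figure D4:**
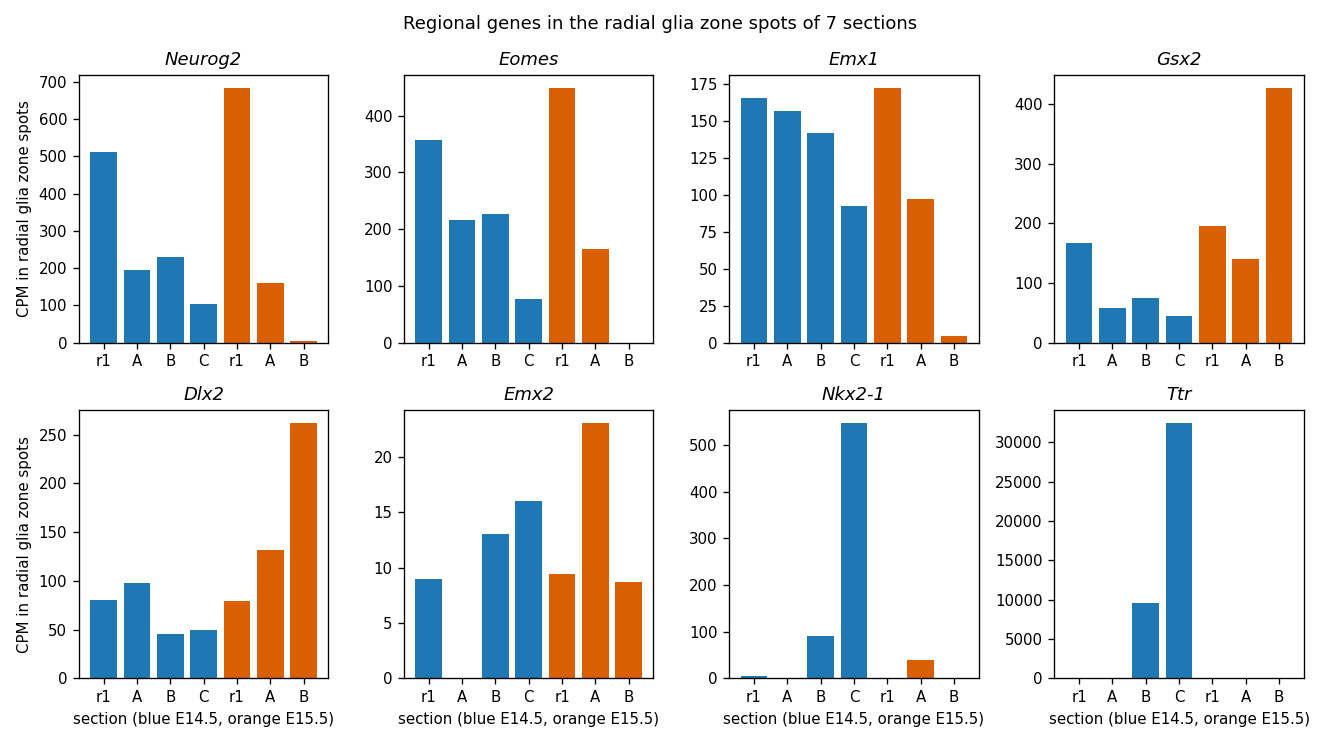
Level in CPM of 8 regional genes (vertical axes, from 0) in the radial glia zone spots of the 7 sections that held any, with E14.5 in blue and E15.5 in orange and r1 for replicate 1. Neurog2 and Eomes were highest in both replicate 1 sections, Gsx2 and Dlx2 in the E15.5 section B, and Nkx2-1 and Ttr in the E14.5 section C.

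The members of 2 sections also contained choroid plexus RNA. Ttr, transthyretin, which choroid plexus epithelium secretes, was at 9530 CPM in the members of the E14.5 section B and 32448 CPM in those of section C. In the members of the other 5 sections it was between 0 and 4.36 CPM. Ttr made up at least 1% of the UMIs in 17 of 55 members of section B and 14 of 15 members of section C, and in 0 of 855 and 23 of 657 of their other spots. The summed level of the 12 choroid plexus genes in the members was 36.6, 17452, 21.0 and 26.8 CPM by area, and 141, 1449, 183 and 442 CPM in the other spots. Clic6 and Folr1 were at 503 and 238 CPM in the members of section C. Among the members, genes of the cortical hem and roof were also highest there, at a sum of 836 CPM over 13 genes, with Msx1 at 112 and Lmx1a at 60.9 CPM. Members of the other 6 sections had sums between 82.9 and 398 CPM. The other spots had sums of 699, 686, 740 and 779 CPM by area, and 0 genes of this list were 2-fold higher in the members in every area. The part of choroid plexus RNA in the stage comparisons was not tested.

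Markers of most other tissues were lower in the members in part or in whole, list by list. Of all genes outside the score, 7.18% were at least 2-fold lower in every area and 1.84% higher. All 12 genes of meninges and mesenchyme were at least 2-fold lower in the members in every area, with a summed level of 2112, 1969, 599 and 1154 CPM in the members and 21017, 28574, 26279.9 and 39124 CPM in the other spots. Col1a1, a chain of type I collagen, still had 822, 801, 190.0 and 565 CPM in the members. All 7 muscle genes with enough UMIs were lower too, with a median log2 ratio of -5.91. Of the cartilage and bone genes 6 of 7 were lower and Sox9, which radial glia also use and which the radial glia list holds too, was higher, at 463, 461, 626 and 419 CPM against 158, 205, 197 and 155 CPM. Of the retina and pigment epithelium genes 4 of 7 were lower, among them Rax and Six6, and Rlbp1, a retinoid-binding protein of retinal glia, was higher, at 188, 52.3, 188 and 65.4 CPM against 35.0, 15.8, 27.4 and 14.5 CPM. Lens (2 of 7), surface epithelium (4 of 6), endothelium (2 of 10), macrophage (2 of 9), olfactory (1 of 4) and diencephalic (3 of 8) genes were lower in part and 0 of them higher, and of the 4 peripheral glia and 5 red cell genes with enough UMIs 0 were 2-fold higher or lower in every area.

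The question of the stages was whether the zone itself differed between E14.5 and E15.5. UMIs were summed over the members of each capture area and compared, 2 areas against 2, with edgeR's quasi-likelihood test. Of 11054 genes tested, 0 (0.0%) passed a Benjamini-Hochberg adjusted p of 0.1, and 352 had an unadjusted p under 0.05, of which 35 were higher and 317 lower at E15.5. DESeq2 called 11 genes, all lower at E15.5. With an area left out, a stage has a single area and the spread comes from the other stage alone, the lone area being assumed to vary like it. Under this assumption edgeR called 521 genes without E14.5 replicate 1, 37 without E14.5 replicates 2, 3 and 4, 1 without E15.5 replicate 1 and 0 without E15.5 replicates 2, 3 and 4. Without the filter on low counts it called 231 genes. Both replicate 1 areas had a single section and shared a Space Ranger version, and the other areas shared another version and held 3 sections, and with this pairing as a block edgeR called 122 genes, 7 higher and 115 lower at E15.5. The areas of the stages did not overlap, in the direction of higher CPM at E15.5, in 10.6% of all genes tested, and in the direction of lower CPM in 13.5%.

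**Figure D5:**
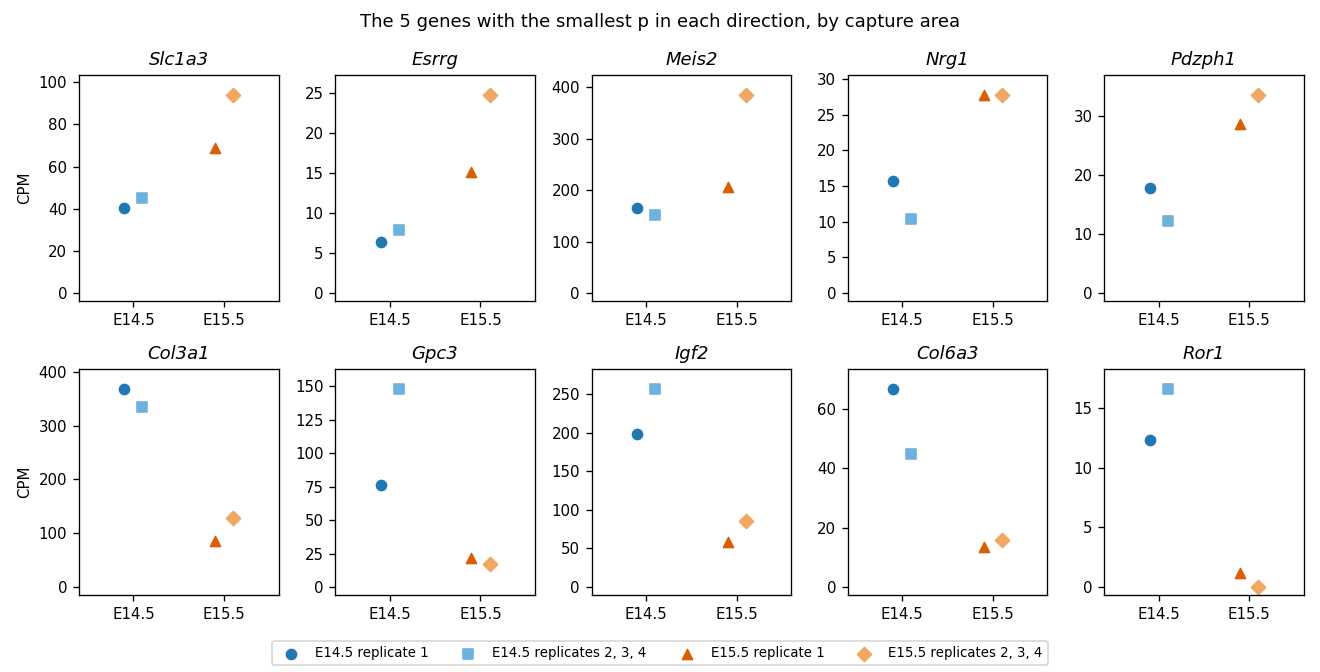
Level in CPM (vertical axes) in the radial glia zone spots of each capture area for the 5 genes with the smallest p higher at E15.5 (upper row) and the 5 lower (lower row), with E14.5 in blue and E15.5 in orange. Both E15.5 areas lay on 1 side of both E14.5 areas for all 10 genes, and 0 of them passed an adjusted p of 0.1.

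Since fewer than 5 genes passed, the 5 with the smallest p in each direction are given, and none of these 10 is a called difference. Slc1a3, a glutamate transporter of radial glia and astrocytes, had 40.5, 45.2, 69.0 and 94.1 CPM in the 4 areas, a log2 fold change of 0.92 (SE 0.285, edgeR adjusted p = 0.999). Meis2, a homeobox factor of the ventral telencephalon, had 165, 151, 207 and 386 CPM, a log2 fold change of 0.90 (SE 0.306, edgeR adjusted p = 0.999). Esrrg, a nuclear receptor, had 6.39, 7.87, 15.1 and 24.8 CPM, Nrg1, a neuregulin ligand, 15.8, 10.4, 27.8 and 27.7 CPM, and Pdzph1 17.9, 12.3, 28.7 and 33.7 CPM. In each of these genes both E15.5 areas were above both E14.5 areas.

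The 5 genes lower at E15.5 are known from mesenchyme and growth control. Col3a1, a fibrillar collagen of connective tissue, had 369, 334, 84.7 and 128 CPM, a log2 fold change of -1.73 (SE 0.273, edgeR adjusted p = 0.610). Gpc3, a glypican, had 76.3, 148, 21.9 and 16.8 CPM, a change of -2.49 (SE 0.394, edgeR adjusted p = 0.610). Igf2, a fetal growth factor, had 199, 257, 57.7 and 85.2 CPM, Col6a3, a collagen, 66.9, 45.0, 13.6 and 15.9 CPM and Ror1, a receptor for Wnt ligands, 12.4, 16.7, 1.18 and 0 CPM. Of the 12 genes of the meninges and mesenchyme list, 9 (75.0%) had both E15.5 areas below both E14.5 areas and 0 above, where 13.5% and 10.6% of all genes tested did. The median log2 fold change of the list was -1.13 against 0.01 for all genes tested. The summed levels of that list are given above, and its part in the stage values was not tested.

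Genes of the radial glia list lay on both sides. Of the 29 radial glia genes tested, 0 passed and 3 had an unadjusted p under 0.05, and the median log2 fold change was 0.15. Both E15.5 areas were above both E14.5 areas in 10 (34.5%) and below in 5 (17.2%), where 10.6% and 13.5% of all genes tested were. The summed level of the 30 genes in the members was 8222, 7161, 9214 and 7184 CPM. Sox9, at 463, 461, 626 and 419 CPM, and Nes, at 228, 273, 245 and 248 CPM, overlapped between the stages. Hes5 had 163, 167, 193 and 186 CPM, higher in both E15.5 areas by a log2 fold change of 0.22 (SE 0.236, edgeR adjusted p = 0.999). Id4 was lower in both E15.5 areas, with a log2 fold change of -0.68 (SE 0.328, edgeR adjusted p = 0.999). A p that misses the threshold with 2 areas a stage does not show that these levels are alike.

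Among the other lists, the 19 cell cycle genes had a median log2 fold change of 0.30, and 0 had an unadjusted p under 0.05. Of these, 9 (47.4%) had both E15.5 areas above both E14.5 areas and 0 below, where 10.6% and 13.5% of all genes tested did. Mki67, at 666, 649, 851 and 848 CPM, was among those above. Of the 13 proneural genes tested, 1 (7.69%) was above and 1 (7.69%) below without overlap, the latter Neurod1 at 123, 113, 101 and 57.5 CPM. Of the 16 gliogenesis genes, 2 (12.5%) were above, Slc1a2 at 192, 139, 222 and 301 CPM and Aldh1l1 at 101, 47.6, 128 and 134 CPM, and 2 (12.5%) below. The proneural and gliogenesis shares lay near or below those of all genes, so these counts are no result about the lists. Of the 15 ventral telencephalon genes, 5 (33.3%) were above, among them Gsx2 at 167, 64.8, 195 and 205 CPM and Sp8 at 12.4, 7.87, 18.1 and 28.7 CPM. In this list 1 (6.67%) was below, Lhx6 at 43.9, 117, 18.9 and 39.6 CPM. Of the 11 dorsal genes 0 were above and 1 (9.09%), Dmrt3, was below, no larger shares than among all genes. The regional makeup given above by section was read from genes of these same dorsal and ventral lists, so it is no separate measure. Stage and region of the members cannot be told apart.

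A second test asked whether the members changed between the stages differently from the other spots of the same areas, with 8 sums and the area as a block. Of 13828 genes tested with edgeR's quasi-likelihood test, 0 (0.0%) passed an adjusted p of 0.1, and 1469 had an unadjusted p under 0.05. DESeq2 called 237 genes, 47 with a higher and 190 with a lower relative level at E15.5. With an area left out, again under the assumption that the lone area of a stage varies like the other stage, edgeR called 854 genes without E14.5 replicate 1, 199 without E14.5 replicates 2, 3 and 4, 5 without E15.5 replicate 1 and 0 without E15.5 replicates 2, 3 and 4. The smallest p values with a higher relative level at E15.5 belonged to Fabp7, Pcdh8, Mt3, Kcnd3 and Sox1. Of these Fabp7 is in the score and is given as a description, with the CPM values above. Mt3 had 1158, 862, 1350.4 and 1755 CPM in the members and 123, 136, 67.2 and 66.1 CPM in the other spots, a relative log2 change of 1.61 (SE 0.269, edgeR adjusted p = 0.176). Sox1 had 152, 154, 181 and 170.5 CPM in the members and 34.8, 39.6, 21.0 and 12.9 CPM in the other spots, a relative log2 change of 1.38 (SE 0.239, edgeR adjusted p = 0.176). For Sox1 the other spots were lower at E15.5 while the members lay slightly higher. The other spots are the rest of the head, and their makeup differed between the areas. Their neuron list summed to 6865, 4603, 4320 and 2291 CPM. Their meninges and mesenchyme list summed to 21017, 28574, 26279.9 and 39124 CPM. The part of this makeup in the relative changes of this test was not tested. Pcdh8, a protocadherin, had a relative log2 change of 1.40 (SE 0.227, edgeR adjusted p = 0.176), and Kcnd3, a potassium channel subunit, of 1.17 (SE 0.201, edgeR adjusted p = 0.176).

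The smallest p values with a lower relative level at E15.5 belonged to Col3a1, Gpc3, Lum, Igf2 and Cdkn1c. Col3a1 had 369, 334, 84.7 and 128 CPM in the members and 3628, 3480.1, 3900.3 and 5605 CPM in the other spots, a relative log2 change of -2.13 (SE 0.211, edgeR adjusted p = 0.149). Cdkn1c, an inhibitor of cyclin-dependent kinases, had 271, 479.8, 147 and 183 CPM in the members and 1315, 2731, 2826 and 3207 CPM in the other spots, a relative log2 change of -1.78 (SE 0.214, edgeR adjusted p = 0.149). In both genes the member value was lower in both E15.5 areas than in both E14.5 areas, and the value in the other spots was higher in both E15.5 areas. None of these 10 genes passed the threshold.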

How the data were processed

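Spots of 4 Visium capture areas of formalin-fixed heads were analysed, 2 at E14.5 and 2 at E15.5. Unnormalised UMI counts of 19465 genes in each spot were deposited, made with Space Ranger 1.3.1 for both replicate 1 areas and 2.0.0 for the others per the file headers, with mm10 in the submitters' processing notes. Version and section layout cannot be told apart. Tissue flags and array positions came from the deposited position files, and 456 of 6357 tissue spots under 2000 UMIs were left out. The members and gene lists were chosen with earlier results of these data known.

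UMIs were summed over the spots of an area, the unit of replication, because its sections share a library. The study's methods call the spatial experiments biological replicates, in triplicate, but which of the 4 sections of a stage come from separate embryos is not given in the labels, so p-values measure the spread between areas. Levels are CPM (UMIs of a gene per 1000000 UMIs), and ratios to other spots are log2 of CPM + 1 per area. Stage was tested with edgeR 4.0.16 (quasi-likelihood, TMM, filterByExpr) and Benjamini-Hochberg adjustment at 0.1 over all genes tested, and tested on simulated data. DESeq2 1.42.0, other filters, spot choices, thinning, a replicate block and leaving out each area were alternatives. Named genes were the score and list genes, the 15 genes outside the lists with the largest minimum ratio, and the 5 genes with the smallest p per direction. Promoters are from RefSeq (GRCm38.p6). Some named genes are not reported here.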

Additional observations from a re-analysis of the deposited data

Results flagged for a closer look

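In 2 flagged genes the difference between members and other spots had 1 sign in both E14.5 areas and the opposite sign in both E15.5 areas. The share of all genes with such a change of sign is not given, so this count is no result. The E14.5 ratios of both genes were small. For Dlx6, a homeobox factor of ventral forebrain neurons, the log2 ratio of members over other spots was -0.08 and -0.14 at E14.5 and 0.15 and 1.20 at E15.5, a difference of the stage means of 0.786, and the edgeR test of the difference gave an adjusted p = 0.462. For Mbp, myelin basic protein, it was -0.15 and -0.20 at E14.5 and 0.28 and 0.69 at E15.5, a difference of 0.658 with an edgeR adjusted p = 0.378.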

How the results depend on the processing

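With 2 areas a stage, counts of called genes depended on the tool, the filter and single areas, and the cause was not tested. For the stage difference edgeR called 0 genes, DESeq2 11, edgeR without the filter on low counts 231, and leaving out an area, which leaves a stage with 1 area assumed to vary like the other stage, gave 0 to 521. The replicate block gave 122 genes. Areas of the same number share section layout and Space Ranger version, no label marks a shared litter or day, and the correlation of their differences over genes was 0.28 with 2 pairs. For the stage difference relative to other spots edgeR called 0 genes, DESeq2 237, no filter 637, sums thinned to the smallest total 22, the 100 highest scores 4, and leaving out an area 0 to 854. The share of members differed by -1.71 percentage points (E15.5 minus E14.5) and by -4.001 with the 400 highest scores. It differed by -2.78 to -0.631 when an area was left out. With the 50 highest scores of each area the difference was -0.286. There the number of members is set, so that the number of spots per area alone fixes this value and it shows nothing about the stages. Of the radial glia list 15 genes were at least 2-fold higher, 9 with spots thinned to 2000 UMIs, 25 against neuronal spots and 15 to 17 without an area. The share of links from members that led to another member was 58.9%, 33.4% with thinned spots, 46.6% and 71.2% with the 100 and 400 highest scores, and 56.2% to 61.6% without an area. The log2 ratio of the proneural list next to the members was -0.69, -0.98 with the 400 highest scores and -0.71 to -0.68 without an area. Leaving out the members of the E14.5 section A, chosen after seeing the data, moved none of these 6 results past its limit. For named genes there were 759 further values of 64 results. Of these, 657 kept their direction and side of the threshold or moved by less than the spread between areas. Another 75 passed the threshold only under the alternative, and 27 moved by more than that spread. Since edgeR called 0 genes in both main tests, there was no called value that could reverse. Gas1, whose areas differed in sign, had a median log2 ratio of -0.11, 0.18 with the 100 highest scores and 0.46 without either area of replicates 2, 3 and 4.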
